A study of Mus musculus with 9 samples.

Results

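The miR-106b-25 cluster is a group of 3 microRNA (miRNA) hairpins, Mir106b, Mir93 and Mir25, that lie within the Mcm7 gene of the mouse. Each hairpin gives a mature miRNA from its 5p arm and another from its 3p arm, so that the cluster has 6 members, chosen here by name: miR-106b-5p, miR-106b-3p, miR-93-5p, miR-93-3p, miR-25-5p and miR-25-3p. All 6 were found among the 1251 miRNAs of the deposited table. Small RNA was sequenced from 9 libraries of male C57BL/6J mice that had been fed a high fat diet (HFD, 45% of energy from fat) for 11 weeks, after an acclimation that began at an age of 5 to 6 weeks, and were fasted for 4 hours before tissue collection. The groups were 3 libraries of interscapular brown adipose tissue (BAT), numbered 12, 15 and 20, 3 of inguinal subcutaneous adipose tissue (SAT), numbered 14, 19 and 20, and 3 of epididymal visceral adipose tissue (VAT), numbered 14, 17 and 20. All libraries came from HFD mice of the same strain, so that the comparisons are between depots under this diet and not between diets. Values are log2 of normalized abundance, their lowest value, 3.32, is the log2 of 10, and the depth of each library is unknown because the table holds no read counts.

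Mature miRNAs guide Argonaute proteins to messenger RNAs that pair with their seed, bases 2 to 8, and thereby lower the output of those messenger RNAs. One arm of a hairpin is usually loaded (the guide) and the other (the passenger) is mostly degraded. The cluster is a paralog of the miR-17-92 and miR-106a-363 clusters, which are known for promoting cell cycle entry and survival through targets such as Cdkn1a, an inhibitor of cyclin-dependent kinases, and Bcl2l11, a promoter of apoptosis. Its host gene Mcm7 encodes a subunit of the replicative DNA helicase.

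The hairpins were located in the reference to show what the 6 members share. On GRCm38, Mcm7 covers chr5:138164583-138172422 on the minus strand, and in its principal transcript the 3 hairpins lie in intron 13 (chr5:138165162-138165909), on the same strand as the gene. In a retained-intron transcript of Mcm7, Mir93 and Mir25 fall in exon 1. In the direction of transcription Mir106b comes first (chr5:138165737-138165818), Mir93 follows after 126 bases (chr5:138165523-138165610) and Mir25 after a further 118 bases (chr5:138165321-138165404), so that the cluster spans 498 bases. The hairpins, from RefSeq on GRCm38.p6, are given 5′ to 3′ with the mature 5p and 3p arms in capitals.
Mir106b: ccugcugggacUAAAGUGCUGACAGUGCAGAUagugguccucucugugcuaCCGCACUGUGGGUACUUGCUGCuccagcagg
Mir93: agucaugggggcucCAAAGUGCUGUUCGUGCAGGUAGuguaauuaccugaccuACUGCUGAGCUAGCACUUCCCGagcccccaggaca
Mir25: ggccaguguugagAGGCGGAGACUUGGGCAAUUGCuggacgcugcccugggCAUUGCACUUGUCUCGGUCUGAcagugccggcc

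The mature arms are given with the seed in capitals, because the seed decides which members belong to the same target family.
miR-106b-5p: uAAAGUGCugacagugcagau
miR-93-5p: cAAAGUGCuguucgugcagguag
miR-25-3p: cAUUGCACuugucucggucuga
miR-106b-3p: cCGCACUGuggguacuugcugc
miR-93-3p: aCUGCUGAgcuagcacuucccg
miR-25-5p: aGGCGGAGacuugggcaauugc
Thus miR-106b-5p and miR-93-5p share the seed of the miR-17 family, and miR-25-3p has the seed of miR-92a-3p. The seeds of miR-106b-3p, miR-93-3p and miR-25-5p were found in no other mature mouse miRNA of the RefSeq table. Each of the 6 has 1 locus. Reads that fit several miRNAs were shared in proportion by the authors, and the closest other mature sequence was 3 edits away for miR-93-5p (miR-17-5p and miR-20b-5p), 4 for miR-25-3p (miR-92a-3p), 5 for miR-106b-5p, and 6 or more for the other 3 arms.

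The tissue labels were checked against miRNAs known to mark these and other cells, with a list's level given as the log2 of 1 plus its summed values above the lowest. The brown adipocyte list (miR-193b-3p, miR-365-3p, miR-378a-3p and miR-455-3p) ranged from 17.35 to 18.84 in BAT, against 15.16 to 15.23 in SAT and 15.67 to 16.27 in VAT. Most of this sum was miR-378a-3p (17.20 to 18.67 in BAT). MiR-193b-3p, miR-378a-3p and miR-455-3p were each higher in every BAT library than in every SAT and VAT library. MiR-365-3p overlapped between depots, with 11.05 in BAT 20, VAT 14 and VAT 17 and 11.34 in SAT 19. A white fat list held miR-196a-5p, miR-196b-5p and miR-10b-5p. Its level was 13.76 to 15.02 in BAT, 16.21 to 16.93 in SAT and 16.73 to 17.78 in VAT, most of it from miR-10b-5p. Within this list, miR-196a-5p stayed at the lowest value throughout BAT but was also low in VAT 14 (3.96). There miR-196b-5p was at the lowest value, while it reached 7.55 in BAT 20. Some libraries stood apart. The muscle list of 6 reached 17.21 in BAT 15, 18.68 in BAT 20 and 17.21 in VAT 20. In the other 6 libraries it was 9.84 to 12.59. Most of it came from miR-133a-3p (17.20 in BAT 15, 18.67 in BAT 20 and 17.20 in VAT 20). MiR-133b-3p was also high there (9.59, 10.82 and 9.76), and miR-206-3p in BAT 15 (8.17) and BAT 20 (8.23). In VAT 20, miR-206-3p (3.63) and miR-1a-3p (3.83) were near the lowest value. MiR-1a-3p was at 7.38 in BAT 20 but at the lowest value in BAT 15, and miR-208b-3p and miR-499-5p were at the lowest value in all libraries. The epithelial list of 6 reached 14.35 in SAT 14 and 10.22 in VAT 20, against 6.33 or less elsewhere, and the leukocyte list of 7 reached 16.83 in SAT 20, against 13.43 to 14.80 elsewhere. In whole tissue, fewer cells of a type and less RNA per cell cannot be told apart.

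All 6 arms were above the lowest value in all 9 libraries, and their levels differed widely although they come from the same intron. MiR-25-3p had the highest level of the 6 in every library, with log2 values from 11.40 to 13.40 and a rank between 35 and 63 among the 1251 miRNAs. MiR-93-5p came next in every library, from 9.97 to 12.65 (rank 43 to 92). MiR-106b-3p was the third in every library, from 8.67 to 9.71 (rank 97 to 125). The other arms were low and changed places between libraries. Over the 9 libraries miR-106b-5p averaged 6.24 ± 0.86 (SD), miR-93-3p 5.89 ± 1.08 and miR-25-5p 5.51 ± 1.26, where the SD also holds the differences between depots. In VAT, miR-106b-5p (6.08 to 6.54) lay above miR-93-3p (4.14 to 5.76) and miR-25-5p (3.92 to 4.51) without overlap. In BAT and in SAT the ranges of these 3 arms overlapped. The arms are 21 to 23 bases long, and how efficiently each sequence enters a library was not measured.

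**Figure D1:**
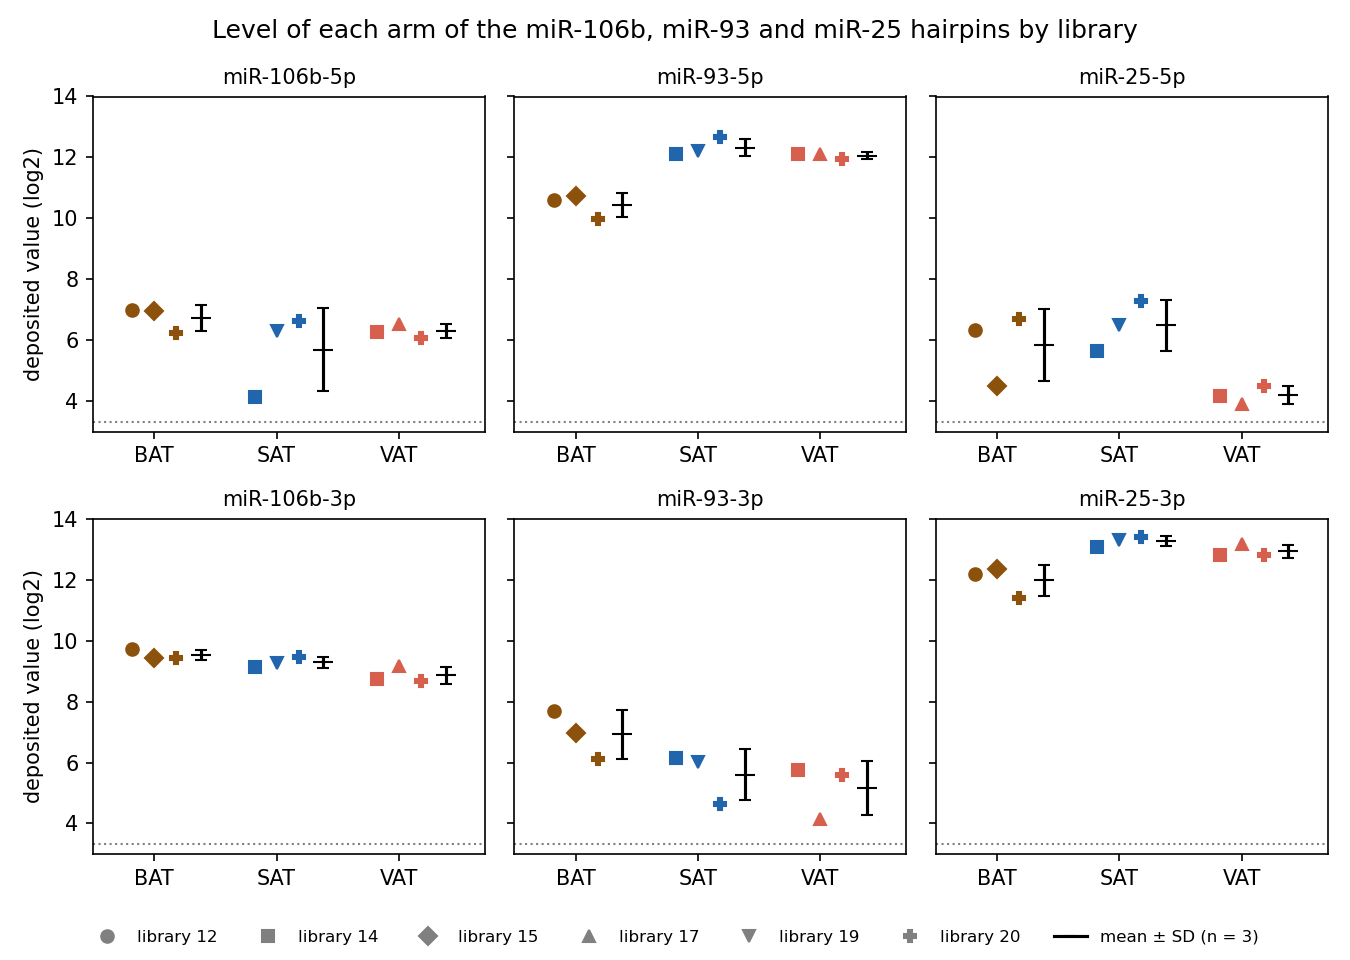
Deposited log2 value (y axis) of each of the 6 arms in the 3 BAT, 3 SAT and 3 VAT libraries (x axis). Points are libraries, with a shape for each library number, black bars are the mean ± SD (n = 3), and the dotted line is the lowest value, 3.32. MiR-93-5p and miR-25-3p lie higher in every SAT and VAT library than in every BAT library, and miR-25-5p lies lower in every VAT library than in every SAT library.

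The abundant arms miR-93-5p and miR-25-3p were higher in both white depots than in BAT. For miR-93-5p, the log2 values were 10.61, 10.74 and 9.97 in BAT 12, 15 and 20, 12.12, 12.20 and 12.65 in SAT 14, 19 and 20, and 12.12, 12.12 and 11.94 in VAT 14, 17 and 20. The lowest white fat library thus lay above the highest BAT library, while SAT and VAT met at 12.12. MiR-93-5p, a guide of the miR-17 family, was thus 3.07-fold higher in VAT than in BAT (log2 fold change 1.62, standard error 0.27, adjusted p = 0.00279) and 3.69-fold higher in SAT than in BAT (log2 fold change 1.88, standard error 0.27, adjusted p = 0.00555) in limma's moderated test on the 6 libraries of each comparison. Both comparisons use the same 3 BAT libraries. In VAT/SAT its log2 fold change was -0.27 (95% interval -0.72 to 0.19, adjusted p = 0.348). Without BAT 20, the BAT library with the lowest miR-93-5p and the highest muscle list, the VAT/BAT log2 fold change was 1.39 and the SAT/BAT one 1.65. MiR-93-5p passed an adjusted p of 0.05 in VAT/BAT and in SAT/BAT under each of the 16 alternatives to either fit.

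MiR-25-3p, the most abundant arm, had log2 values of 12.20, 12.34 and 11.40 in BAT 12, 15 and 20, 13.09, 13.32 and 13.40 in SAT 14, 19 and 20, and 12.81, 13.18 and 12.81 in VAT 14, 17 and 20. No SAT or VAT library overlapped with BAT, and the value of VAT 17 fell within the SAT range. It was 1.94-fold higher in VAT than in BAT (log2 fold change 0.96, standard error 0.32, limma adjusted p = 0.0386) and 2.45-fold higher in SAT than in BAT (log2 fold change 1.29, standard error 0.29, adjusted p = 0.0222). In VAT/SAT it was -0.34 (95% interval -0.74 to 0.07, adjusted p = 0.200). Leaving out a single library kept the direction but raised the adjusted p above 0.05 in VAT/BAT without BAT 12, VAT 14, VAT 17 or VAT 20 (0.0593 to 0.110), and in SAT/BAT without BAT 12, SAT 14, SAT 19 or SAT 20 (0.0504 to 0.0823). Without BAT 20, where miR-25-3p was lowest, its VAT/BAT log2 fold change was 0.66 (adjusted p = 0.0417) and the SAT/BAT one 1.0005 (adjusted p = 0.0101). Markers of other cells moved in the same comparisons. Both endothelial miRNAs of the list, miR-126-3p and miR-126-5p, were higher in VAT and in SAT than in BAT at an adjusted p under 0.05, and their summed level was 11.53 to 12.23 in BAT, 13.27 to 13.61 in SAT and 13.54 to 13.64 in VAT. Of the 6 tested leukocyte miRNAs 5 were higher and 1 lower in VAT than in BAT, and 1 was higher in SAT than in BAT. Beside these endothelial and leukocyte counts, 39.4% of all 343 tested miRNAs were higher and 26.8% lower in VAT than in BAT. In SAT/BAT 22.4% were higher and 18.1% lower. The summed leukocyte levels were 14.35 to 14.80 in BAT, 13.86 to 16.83 in SAT and 13.43 to 14.57 in VAT. The largest part of these sums was miR-150-5p, the 1 that was lower in VAT (12.50 to 14.11, against 14.31 to 14.75 in BAT). The sums thus follow miR-150-5p more than the other members. Of this list, the 3 BAT libraries all had miR-223-3p and miR-142-3p at the lowest value, and miR-155-5p was there in all 9 libraries. MiR-223-3p and miR-142-3p were among the tested miRNAs only through white fat libraries, so the leukocyte counts partly rest on this selection. Of the 3 tested erythroid miRNAs, miR-451a was higher in VAT than in BAT (log2 fold change 2.21, limma adjusted p = 0.00151). MiR-486-5p was lower in VAT than in BAT (-2.49, limma adjusted p = 0.000819) and in SAT than in BAT (-2.59, adjusted p = 0.000309). MiR-144-5p was at the lowest value in all BAT and SAT libraries and at 4.59 to 4.69 in VAT. It was among the tested miRNAs only through its VAT values, so no p-value is given for it. The summed level of the erythroid list was 17.68 in every BAT library, 14.86 to 15.28 in SAT and 14.94 to 15.87 in VAT, most of it from miR-486-5p. The part of these cells in the levels of miR-93-5p and miR-25-3p was not tested.

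The opposite arms of the same hairpins, miR-93-3p and miR-25-5p, were lower in VAT than in BAT. MiR-93-3p had log2 values of 7.70, 6.98 and 6.10 in BAT 12, 15 and 20, 6.16, 6.01 and 4.64 in SAT 14, 19 and 20, and 5.76, 4.14 and 5.57 in VAT 14, 17 and 20. All VAT libraries lay below all BAT libraries, and SAT overlapped with both. MiR-93-3p was 3.41-fold lower in VAT than in BAT (log2 fold change -1.77, standard error 0.59, limma adjusted p = 0.0377). Its log2 fold change was -1.32 in SAT/BAT (95% interval -2.93 to 0.28, adjusted p = 0.150) and -0.45 in VAT/SAT (95% interval -2.09 to 1.20, adjusted p = 0.672). The VAT/BAT call of miR-93-3p was lost without BAT 12, BAT 15, VAT 14, VAT 17 or VAT 20 (adjusted p 0.0608 to 0.101).

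MiR-25-5p, the minor arm of Mir25, was lowest in VAT. Its log2 values were 6.34, 4.51 and 6.71 in BAT 12, 15 and 20, 5.64, 6.52 and 7.30 in SAT 14, 19 and 20, and 4.16, 3.92 and 4.51 in VAT 14, 17 and 20. The VAT libraries lay below all SAT libraries, and BAT 15 had the same value as VAT 20. In VAT/SAT the log2 fold change was -2.29 (standard error 0.46, 4.89-fold lower, limma adjusted p = 0.0356), and it ranked 13 by size among the 343 tested miRNAs. The VAT/BAT value was -1.66 (standard error 0.60, adjusted p = 0.0467). For SAT/BAT it was 0.63 (95% interval -1.37 to 2.63, adjusted p = 0.543). Without BAT 15, the SAT/BAT value turned to -0.04 and the VAT/BAT value became -2.33 (adjusted p = 0.00202), and without BAT 20 the VAT/BAT value was -1.23 (adjusted p = 0.111). The VAT/SAT call was lost without SAT 19, SAT 20, VAT 14, VAT 17 or VAT 20 (adjusted p 0.0650 to 0.103), and the VAT/BAT call without BAT 12, BAT 20, VAT 14, VAT 17 or VAT 20 (0.106 to 0.144). The VAT values of miR-25-5p, 3.92 to 4.51 (rank 264 to 286), were near the lowest value of the table. More miRNAs were above that value in the VAT libraries (323 to 349) than in BAT (255 to 273) or SAT (240 to 285). How far this moved the differences of miR-25-5p was not tested. The authors name an offset of 40 counts while the lowest value is 10 before log2, so how the offset acts on low values is unknown.

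Neither arm of Mir106b passed the test in any comparison. MiR-106b-3p had the smallest spread of the 6 arms over the 9 libraries, with log2 values of 9.71, 9.42 and 9.43 in BAT 12, 15 and 20, 9.12, 9.27 and 9.47 in SAT 14, 19 and 20, and 8.75, 9.18 and 8.67 in VAT 14, 17 and 20. The VAT libraries lay below all BAT libraries, and the log2 fold change in VAT/BAT, -0.65 (95% interval -1.25 to -0.06), had a limma adjusted p of 0.0528. It passed in 7 of the 16 alternatives, among them the fit without VAT 17 (-0.81, adjusted p = 0.0330), and miR-106b-3p was lower in VAT in all 16. The log2 fold change was -0.23 in SAT/BAT (95% interval -0.61 to 0.15, adjusted p = 0.255) and -0.42 in VAT/SAT (95% interval -0.89 to 0.05, adjusted p = 0.176).
MiR-106b-5p, the other cluster member with the miR-17 seed, had log2 values of 6.995, 6.98 and 6.23 in BAT 12, 15 and 20, 4.13, 6.32 and 6.63 in SAT 14, 19 and 20, and 6.28, 6.54 and 6.08 in VAT 14, 17 and 20. SAT 14, the library with the highest epithelial list, stood apart, the next lowest library being VAT 20, and the groups overlapped. Its VAT/BAT log2 fold change was -0.44 (95% interval -1.16 to 0.29, adjusted p = 0.229), and the values were -1.04 in SAT/BAT (95% interval -3.02 to 0.94, adjusted p = 0.324) and 0.61 in VAT/SAT (95% interval -1.25 to 2.46, adjusted p = 0.598). Without SAT 14 the SAT/BAT value was -0.26 and the VAT/SAT value turned to -0.17, and without BAT 20 the VAT/BAT value was -0.69 (adjusted p = 0.0389).

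**Figure D2:**
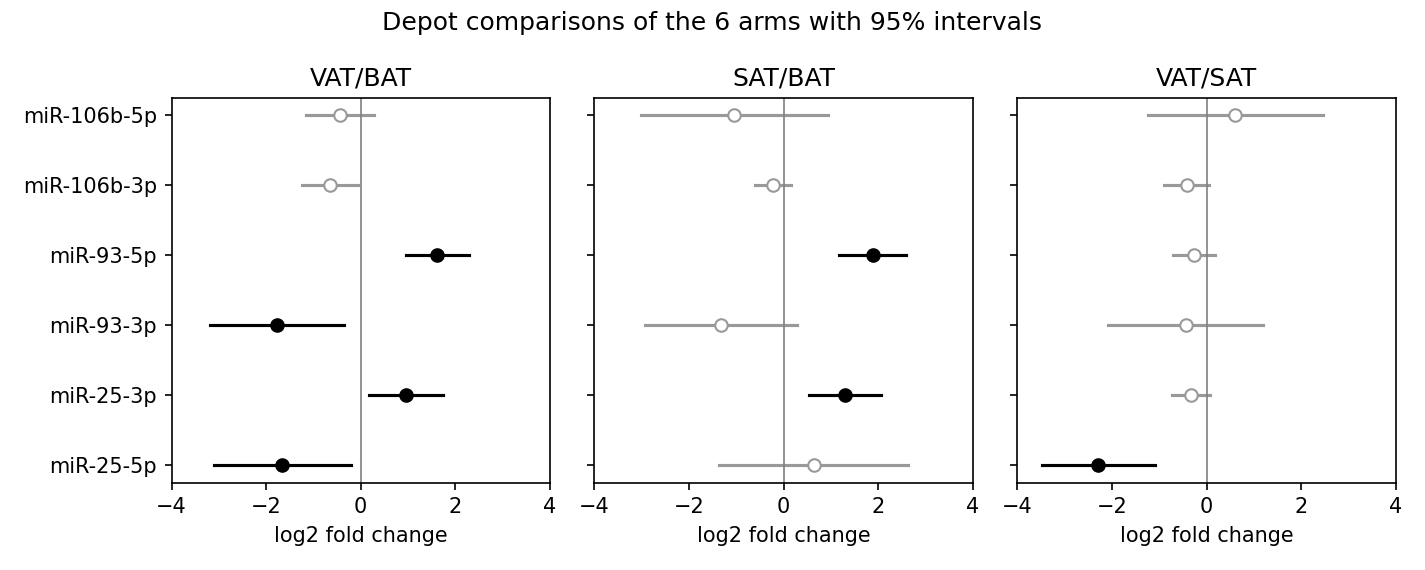
Log2 fold change (x axis) of the 6 arms (y axis) in VAT/BAT, SAT/BAT and VAT/SAT, with the 95% interval from limma. Black filled points had an adjusted p under 0.05, and grey open points did not. MiR-93-5p and miR-25-3p lie to the right of 0 in both comparisons with BAT, and miR-25-5p lies at -2.29 in VAT/SAT.

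Counted over the cluster, 4 of the 6 arms passed an adjusted p of 0.05 in VAT/BAT, miR-93-5p and miR-25-3p higher and miR-93-3p and miR-25-5p lower in VAT, where 66.2% of the 343 tested miRNAs passed (39.4% higher, 26.8% lower). For 4 of the 6 arms VAT did not overlap with BAT, against 72.0% of all tested miRNAs. In SAT/BAT 2 of 6 passed, both higher in SAT, against 40.5% of all (22.4% higher, 18.1% lower), and 2 of 6 did not overlap, against 52.5%. In VAT/SAT 1 of 6 passed, miR-25-5p, against 16.0% of all (8.45% higher, 7.58% lower), and 1 of 6 did not overlap, against 39.4%. The 6 arms had a median log2 fold change of -0.54 for VAT/BAT, 0.20 for SAT/BAT and -0.38 for VAT/SAT, beside 0.40, 0.26 and 0.10 over all tested miRNAs. Leaving out single libraries gave 1 to 4 arms in VAT/BAT, with 1 or 2 without BAT 12, VAT 14, VAT 17 or VAT 20. It gave 1 or 2 arms in SAT/BAT, with 1 without BAT 12 or any SAT library.

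Because both arms of a hairpin come from the same transcript and library, the difference of their log2 values (5p minus 3p) is not moved by a shift of all values of a library. It can be moved by a normalization that acts unequally on high and low values, such as quantile normalization, whose pattern these values have. The difference was tested with limma over the 84 hairpins with both arms among the tested miRNAs. For miR-93 the 5p arm was in excess in every library, by 2.91, 3.76 and 3.87 in BAT 12, 15 and 20, 5.96, 6.19 and 8.02 in SAT 14, 19 and 20, and 6.36, 7.98 and 6.36 in VAT 14, 17 and 20. The excess of miR-93-5p over miR-93-3p was thus larger in every SAT and VAT library than in every BAT library. Its largest values, in SAT 20 and VAT 17, go with miR-93-3p at 4.64 and 4.14, not far above the lowest value of the table, 3.32. VAT exceeded BAT in this difference by 3.39 on the log2 scale (standard error 0.55, adjusted p = 0.00383), where 47.6% of the 84 hairpins passed an adjusted p of 0.05. SAT exceeded BAT by 3.21 (standard error 0.68, adjusted p = 0.00832), where 28.6% passed. By size, miR-93 ranked 8 of 84 in VAT/BAT and 10 of 84 in SAT/BAT. In VAT/SAT the difference was 0.18 (95% interval -1.41 to 1.78, adjusted p = 0.875). The VAT/BAT call held in all 12 alternatives and the SAT/BAT call in 11 of 12, the exception being the fit without both SAT 14 and BAT 20 (3.77, adjusted p = 0.0830). Without SAT 20, which had the largest miR-93 difference, the SAT/BAT value was 2.56 (adjusted p = 0.0292).

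The miR-25 hairpin had its excess on the 3p side, which is the arm of its guide, and the excess was largest in VAT. The 5p minus 3p difference was -5.86, -7.83 and -4.68 in BAT 12, 15 and 20, -7.45, -6.80 and -6.10 in SAT 14, 19 and 20, and -8.65, -9.26 and -8.30 in VAT 14, 17 and 20. Every VAT library lay below every other library, with miR-25-5p near the lowest value of the table in VAT. VAT differed from BAT by -2.61 (standard error 0.78, limma adjusted p = 0.0296) and from SAT by -1.95 (standard error 0.45, adjusted p = 0.0384), where 14.3% of the 84 hairpins passed. In SAT/BAT the difference was -0.66 (95% interval -2.52 to 1.20, adjusted p = 0.530). The VAT/BAT value was -3.47 without BAT 15 (adjusted p = 0.00491) and -1.89 without BAT 20 (adjusted p = 0.0476). Its call was lost without BAT 12, VAT 14, VAT 17 or VAT 20 (adjusted p 0.0534 to 0.118) and the VAT/SAT call without SAT 19, SAT 20, VAT 14, VAT 17 or VAT 20 (0.0508 to 0.145).
The miR-106b hairpin had more of its 3p arm, although miR-106b-5p carries the seed of the family. Its 5p minus 3p difference had a mean of -2.79 ± 0.39 (SD, n = 3) for BAT, -3.60 ± 1.21 (n = 3) for SAT and -2.57 ± 0.08 (n = 3) for VAT. It did not pass in any comparison (limma adjusted p 0.236 to 0.637), and SAT 14 had the lowest value, -4.996. Counted over the 3 hairpins, the libraries did not overlap for 2 in VAT/BAT (56.0% of the 84 hairpins), 1 in SAT/BAT (48.8%) and 2 in VAT/SAT (39.3%).

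**Figure D3:**
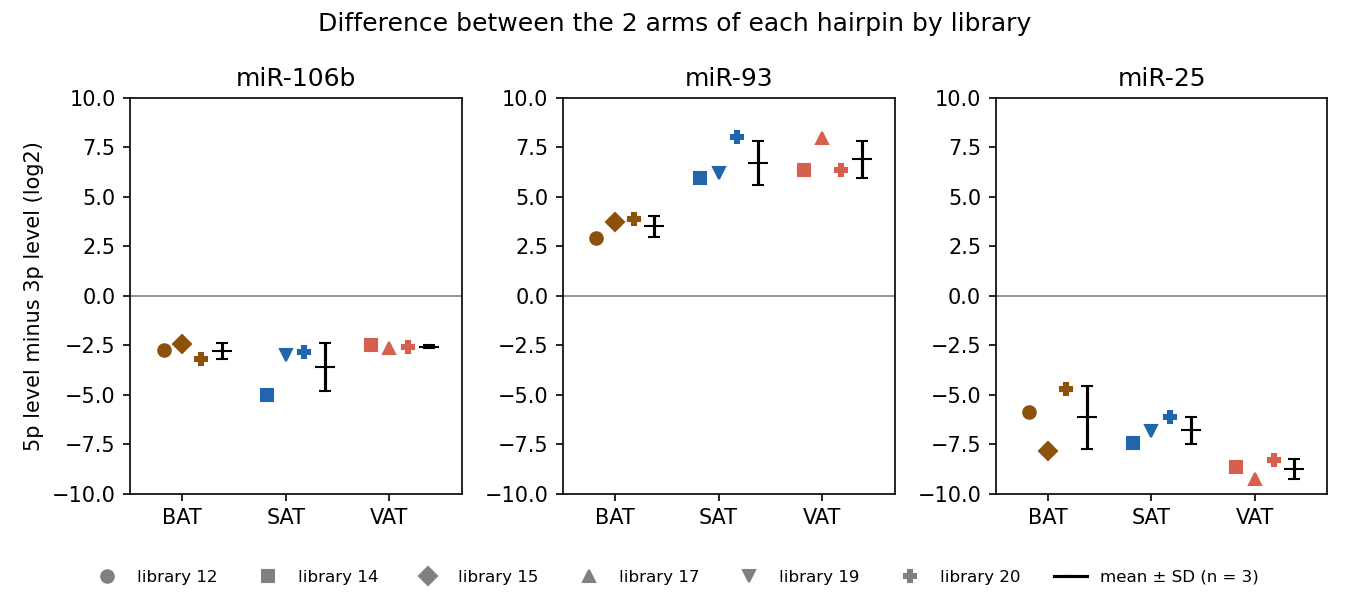
Difference between the log2 values of the 5p and the 3p arm (y axis) for the hairpins miR-106b, miR-93 and miR-25 in each library of the 3 depots (x axis). Points are libraries, black bars are the mean ± SD (n = 3), and values above 0 mean more of the 5p arm. For miR-93 the white fat libraries lie between 5.96 and 8.02 and the BAT libraries between 2.91 and 3.87, and for miR-25 the VAT libraries lie below all others.

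The cluster was then set beside its paralogs, which can act on the same targets through the same seeds. Of the 7 mature miRNAs with the miR-17 seed in the RefSeq table, 4 were among the tested miRNAs, and of the 6 with the miR-25 seed, 3. They are given with the seed in capitals, since they differ from the cluster members of the same seed outside it, by 3 to 6 edits over the whole mature sequence for the pairs compared here.
miR-17-5p: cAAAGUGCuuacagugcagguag
miR-20a-5p: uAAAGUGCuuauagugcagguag
miR-92a-3p: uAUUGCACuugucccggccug
miR-92b-3p: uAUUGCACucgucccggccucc
The miR-17-92 cluster, on chromosome 14, had 7 of its 12 arms among the tested miRNAs. In VAT/BAT 3 were higher and 1 lower (limma, adjusted p under 0.05), where 39.4% of all tested miRNAs were higher and 26.8% lower. In SAT/BAT 3 were higher, against 22.4% of all. In VAT/SAT 1 was higher and 1 lower, against 8.45% and 7.58% of all. Among those higher in both comparisons with BAT was miR-19b-3p, which was at the lowest value in all BAT libraries. The arm higher in VAT/SAT was miR-20a-5p, at the lowest value in all SAT libraries. These counts thus partly rest on which miRNAs were kept for testing. Of the 10 arms of the miR-106a-363 cluster, on chromosome X, 9 were at the lowest value in all 9 libraries. The exception was miR-363-3p, at 3.83 in VAT 14.

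Within the miR-17 seed, miR-93-5p was the member with the highest level in every library. MiR-17-5p was also higher in white fat, by 2.79 on the log2 scale in VAT against BAT (standard error 0.52, limma adjusted p = 0.00422) and by 2.43 in SAT against BAT (standard error 0.58, adjusted p = 0.0265), and it was at the lowest value in BAT 20. MiR-106b-5p and miR-17-5p changed order between depots. In BAT, miR-106b-5p was 2.23 ± 0.61 above miR-17-5p on the log2 scale (SD, n = 3), a lower bound because miR-17-5p was at the lowest value in BAT 20. It lay below miR-17-5p in the white depots, with a difference of -1.24 ± 1.29 for SAT and -0.99 ± 0.09 for VAT (SD, n = 3 each). The BAT libraries did not overlap with those of either white depot, and VAT differed from BAT by -3.23 and SAT from BAT by -3.47 (exact permutation test, two-sided p = 0.1 in both, the smallest that 3 libraries against 3 allow, and 0.15 after adjustment over the 9 such tests). Without BAT 20 the differences were -2.89 and -3.14. MiR-93-5p exceeded miR-20a-5p by 7.51 ± 0.49 in VAT (SD, n = 3). MiR-20a-5p was at the lowest value in all 3 SAT libraries and in BAT 12 and BAT 20, so that the mean differences there, 9.002 in SAT and 6.72 in BAT, are lower bounds.

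Within the miR-25 seed, the depot differences ran in opposite directions. MiR-92a-3p, encoded in both paralogous clusters, had the highest level of this family, with log2 values of 15.87, 15.70 and 16.02 in BAT 12, 15 and 20 and 14.41, 14.75 and 14.18 in VAT 14, 17 and 20. Its log2 fold change was -1.42 for VAT/BAT (standard error 0.25, limma adjusted p = 0.00300) and -0.65 for SAT/BAT (adjusted p = 0.166). MiR-92b-3p, encoded on chromosome 3, was lower in both, with log2 fold changes of -1.84 in VAT/BAT (adjusted p = 0.000703) and -2.12 in SAT/BAT (adjusted p = 0.00617). MiR-25-3p was below miR-92a-3p in every library, with a mean difference of -3.88 ± 0.66 for BAT, -1.94 ± 0.47 for SAT and -1.51 ± 0.12 for VAT (SD, n = 3 each), and the white fat libraries did not overlap with BAT. The difference was 2.37 higher in VAT than in BAT and 1.94 higher in SAT than in BAT (exact permutation test, two-sided p = 0.1 in both, adjusted p = 0.15 over the 9 tests). Between VAT and SAT it differed by 0.43 (exact p = 0.3).

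**Figure D4:**
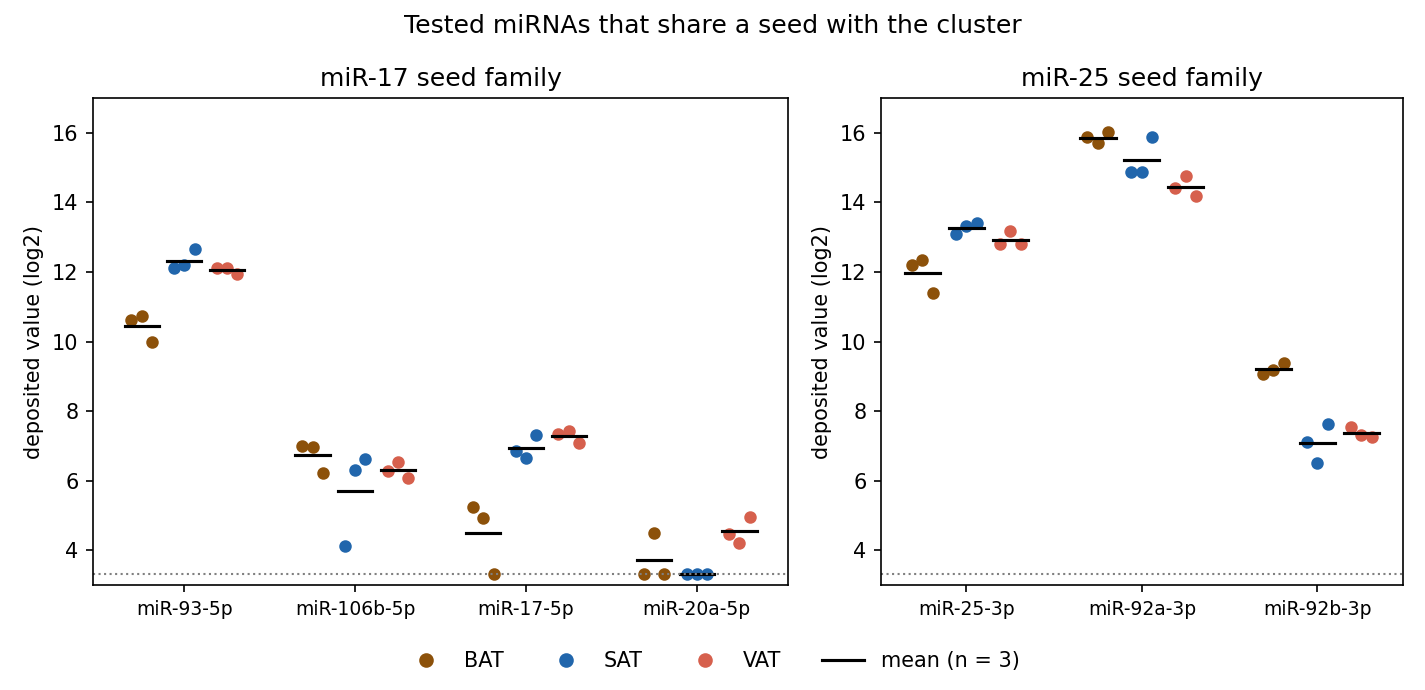
Deposited log2 values (y axis) of the tested miRNAs that share the miR-17 seed (left) or the miR-25 seed (right) with the cluster. Points are libraries, coloured by depot, black lines are means (n = 3), and the dotted line is the lowest value, 3.32. MiR-93-5p, miR-17-5p and miR-25-3p lie higher in SAT and VAT than in BAT, and miR-92b-3p lies lower.

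The miRNAs with the most similar profile were found by the root mean square difference over the 9 libraries after each miRNA was centred on its own mean, as a description without a test. For miR-93-5p these were miR-103-3p (0.21 on the log2 scale), miR-532-5p (0.21) and miR-148a-5p (0.23), against a median of 1.06 over the tested miRNAs outside the cluster. MiR-103-3p averaged 11.83 in BAT, 14.05 in SAT and 13.55 in VAT. For miR-25-3p they were miR-148b-3p (0.18), miR-23b-3p (0.23) and miR-34a-5p (0.24), against a median of 1.02. Within the cluster, miR-93-5p and miR-25-3p differed by 0.33, and each of them differed from the other 4 arms by 0.77 to 1.72. For miR-106b-5p the nearest were miR-652-3p (0.55), miR-30e-3p (0.56) and miR-30e-5p (0.57), against a median of 1.29. The 9 libraries share 3 depots and are not independent points.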

How the data were processed

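Small RNA libraries (Illumina protocol) from BAT, SAT and VAT were analysed from a single table. The authors took counts of mature miRNAs from an alignment to miRBase (ambiguous reads were divided among their candidates), scaled them to library size by usable reads, and used an offset of 40 counts. The deposited values are on a log2 scale. Their lowest value is 10 before log2, and how this relates to the offset of 40 is not stated. At the 100 highest ranks the libraries differ by at most 0.14, a pattern that quantile normalization leaves, so that a value mostly gives a rank. The labels name the build mm10. Without read counts, library depth is unknown and no counting error can be given.

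The values were used as deposited. Of 1251 miRNAs, 343 exceeded the lowest value in 3 or more libraries and were tested with limma 3.58.1 in R 4.3.3 (lmFit, eBayes) on the 6 libraries of each comparison, two-sided, and adjusted by Benjamini-Hochberg over these 343 or over the 84 hairpins with both arms among them. The authors' methods name an unmoderated test per miRNA, which was run as an alternative. Neither labels nor methods tie library numbers to mice, so p-values measure the spread between libraries. Differences from paralogs were tested by exact permutation (scipy 1.17.1). The limma step was tested on simulated data.

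The members, lists and comparisons were chosen with earlier results of these data known. The text names the 6 arms, the fixed lists of paralogs, seed family and cell type markers, and the 3 nearest profiles of miR-106b-5p, miR-93-5p and miR-25-3p. Alternatives were no filter, only the 171 miRNAs with the higher mean, other offsets (1 in place of the lowest value, or 40 more), a common median, scaling to miR-191-5p, a single fit of all 9 libraries, replicate blocks, no moderation and each library left out. Leaving out pairs of libraries (BAT 20 with VAT 20, SAT 14 with BAT 20, SAT 14 with VAT 20) was chosen after seeing the data. Sequences came from RefSeq (GRCm38.p6) and gene positions from GENCODE M21 (GRCm38), which is the same assembly as mm10.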

Additional observations from a re-analysis of the deposited data

How the results depend on the processing

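The counts of called arms depended on several choices, and the cause was not tested. In VAT/BAT, 1 arm passed instead of 4 without a filter, with an offset of 1 in place of the lowest value, and without BAT 20 and VAT 20, and 2 passed without moderation. Single libraries left out gave 1 to 4. In SAT/BAT, 1 arm passed instead of 2 without a filter, and single libraries left out gave 1 to 2. In VAT/SAT, limma called 0 arms instead of 1 without a filter, with a further 40 added, relative to miR-191-5p, with all 9 libraries in a single fit, with the replicate block in that fit, and without SAT 14 and VAT 20, where 1 arm had an unadjusted p under 0.05 each time. Without moderation 0 passed as well, with 1 at an unadjusted p under 0.05. Among the miRNAs with the higher mean only, miR-25-5p was not tested and 0 passed, also unadjusted. Single libraries left out gave 0 to 1, and where 0 passed, 1 to 3 had an unadjusted p under 0.05. Of the 3 arm differences, 1 passed instead of 2 in VAT/BAT with an offset of 1, without moderation, and without BAT 20 and VAT 20, and single libraries left out gave 1 to 2. In SAT/BAT 0 passed in limma instead of 1 without SAT 14 and BAT 20 (1 unadjusted), and in VAT/SAT 0 instead of 1 with a further 40 added, with all 9 libraries, with the replicate block in all 9, without moderation, and without SAT 14 and VAT 20 (1 unadjusted each). Single libraries left out gave 0 to 1 in VAT/SAT (1 or 2 unadjusted at 0) and 1 in SAT/BAT.

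Directions turned only for values that had not passed the test. With single libraries left out, miR-25-5p in SAT/BAT ranged from -0.041 (without BAT 15) to 1.06, the miR-25 arm difference in SAT/BAT from -1.51 to 0.059 (without BAT 20), miR-106b-5p in VAT/SAT from -0.17 (without SAT 14) to 1.08, and miR-93-3p in VAT/SAT from -0.93 to 0.063 (without VAT 17). The miR-93 arm difference in VAT/SAT ranged from -0.36 (without VAT 17) to 0.83 and was also below 0 without SAT 14 (-0.20) or SAT 19 (-0.08) and with a further 40 added (-0.04). Without SAT 14 and BAT 20 the miR-25 arm difference in SAT/BAT was 0.39, and without SAT 14 and VAT 20 miR-106b-5p in VAT/SAT was -0.064. MiR-106b-5p minus miR-17-5p in VAT/SAT turned to -0.0036 with a further 40 added and ranged from -0.49 to 0.71 with single libraries left out. MiR-93-5p minus miR-20a-5p in VAT/BAT turned to -0.92 with an offset of 1.

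Library numbers 14 and 20 are shared by SAT and VAT, and 20 by all 3 depots. Deviations of same-numbered libraries from their depot means correlated at -0.14 to 0.27 across miRNAs in 4 pairs. Without the values of differently numbered pairs beside them, these correlations cannot decide whether the numbers pair the libraries. The main fits did not use the numbers as pairs, and whether the numbers mark mice is not given in the sources used here. With the number as a replicate block in the 6 libraries of VAT/SAT, 1 arm and 1 arm difference passed, as without it (miR-25-5p -2.29, adjusted p = 0.0349), and 55 of all tested miRNAs passed with and without the block. In all 9 libraries 5 arms passed in VAT/BAT and 2 passed in SAT/BAT, both with and without the block. Depth is unknown, so the counting error of the 3 low arms cannot be given.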

Other observations

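The distance between miR-93-5p and miR-106b-5p, which share a seed and are cut from neighbouring hairpins of the same intron, was singled out after the values were seen. On the log2 scale miR-93-5p exceeded miR-106b-5p by 3.71 ± 0.08 in BAT (range 3.61 to 3.76), by 6.63 ± 1.18 in SAT (5.88 to 7.99) and by 5.76 ± 0.16 in VAT (5.58 to 5.86), each with SD over 3 libraries. The 3 depots did not overlap. MiR-93-5p minus miR-25-3p had a mean of -1.54 for BAT, -0.94 for SAT and -0.87 for VAT, and the white depots overlapped with each other but not with BAT.

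Against miR-17-5p of the paralogous cluster, miR-93-5p was higher by 5.94 ± 0.66 in BAT, 5.39 ± 0.15 in SAT and 4.77 ± 0.09 in VAT (SD, n = 3 each). In BAT 20, where miR-17-5p was at the lowest value, this is a lower bound.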
